A study of Rattus norvegicus with 3 samples.

Results

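Reelin is a large secreted glycoprotein, and the 4 genes described here encode the ligand and the core of the machinery that receives it: Reln (the ligand), Lrp8 (the receptor also called ApoER2), Vldlr (the very low density lipoprotein receptor) and Dab1 (the intracellular adaptor). They were taken by name as Reelin, its receptors and its adaptor, and all 4 were found among the 29772 genes of the count matrices. The study dissociated wild-type rat (Rattus norvegicus) cerebral cortex with papain and made a 10x Genomics 3' single-cell library of freshly prepared primary cells at each of 3 labels, E14, E16 and E18, which name the embryonic day. The 3 groups share genotype, tissue and chemistry and differ in the label. The number of embryos behind a library is not given in the sources used here.

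In the developing cortex Reelin is secreted mainly by Cajal-Retzius cells, which are born early and sit just under the brain surface. It binds Lrp8 and Vldlr on migrating neurons and on radial glia. The receptors hold Dab1 at their intracellular tails, and Src family kinases such as Fyn phosphorylate Dab1 once Reelin has bound. Loss of Reln, of Dab1 or of both receptors together disturbs the layering of the cortex, as in the reeler mouse. Radial glia are the neural stem cells of this tissue, intermediate progenitors are their dividing neuronal offspring, and newborn and maturing excitatory neurons follow.

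The Reln promoter is shown because Reln was the member with the sharpest restriction to 1 class of cells. The 250 bases before its annotated start (RefSeq, assembly GRCr8, chr4:13628318-13628567, plus strand) read 5′ to 3′ as follows, with capitals marking the GC box GGGCGG and the E-box CANNTG, each searched on both strands.

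Reln: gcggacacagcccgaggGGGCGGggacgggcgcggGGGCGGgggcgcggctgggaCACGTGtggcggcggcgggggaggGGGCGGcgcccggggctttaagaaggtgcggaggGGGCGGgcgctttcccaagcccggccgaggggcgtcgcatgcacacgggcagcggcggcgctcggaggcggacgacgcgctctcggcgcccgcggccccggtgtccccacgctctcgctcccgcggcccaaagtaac

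This stretch is 80.0% G and C, at percentile 99.0 of the 33469 promoters of the same length, whose median is 51.2%. It holds 41 CpG dinucleotides, against a median of 5. The GC box occurs 4 times in it and in 30.5% of all promoters at least once, while the E-box occurs 1 time and in 65.5% of promoters. The T-box half-site GGTGTGA, searched on both strands, has 0 matches in this window and is held by 3.22% of promoters. A match to these letters is a description only.

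After filtering, 4286, 4977 and 5431 cells remained in the libraries labelled E14, E16 and E18, or 14694 of 20744 barcodes, with a median of 11199.5, 12264 and 10477 unique molecular identifiers (UMIs, each standing for 1 captured RNA molecule) per cell. Cells were grouped into 25 clusters without using the 4 genes, and 22 clusters were named from fixed marker genes as resembling a cell type. Pairs of libraries shared 7 or 8 cell barcodes. With 1 library per label there is no replicate, so no test was made. The intervals given are 95% intervals for counting error only (Poisson for levels in UMIs per 1000000 UMIs, CPM; Clopper-Pearson for shares; conditional exact for log2 ratios, with 1 CPM added to each level). "Past 2-fold" describes these libraries alone. Genes with a mean under 5 CPM in a comparison are called low and were left out of the background counts.

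The labels did not run in order with genes that mark developmental stage. Embryonic globins made up 2.57% of globin UMIs in the library labelled E14, 67.4% in that labelled E16 and 22.0% in that labelled E18. In radial glia-like cells Hmga2, high in early progenitors, stood at 13.4, 235 and 22.8 CPM in the same order of labels. Every direction between libraries is therefore a difference between libraries as labelled, not a course over known ages. Their composition differed as well: 12 clusters holding 58.1% of cells took over 90% of their cells from 1 library. The library labelled E16 held 1 newborn and 0 maturing excitatory neuron-like cells, and its neurons fell mainly in an unnamed cluster. That cluster, of 541 cells labelled E16, was led by Calb1, Calb2, Ebf1, Lhx9 and Nxph4.

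Reln, the ligand, was concentrated in the Cajal-Retzius-like cluster in all 3 libraries, though Reln was not used to form it. The cluster held 16, 89 and 51 cells labelled E14, E16 and E18, or 0.373%, 1.79% and 0.939% of kept cells. Its share of the Reln UMIs in kept cells was 91.6% (90.5 to 92.6) under E14, 57.4% (55.5 to 59.3) under E16 and 84.9% (83.8 to 86.0) under E18. Over 7 other processing choices that gave a value the share under E16 ranged from 53.9% to 80.1%, outside this counting interval under each. The barcodes left out by the cell filter or as doublets, which are not in these shares, held a further 625, 540 and 1314 Reln UMIs.

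**Figure D1:**
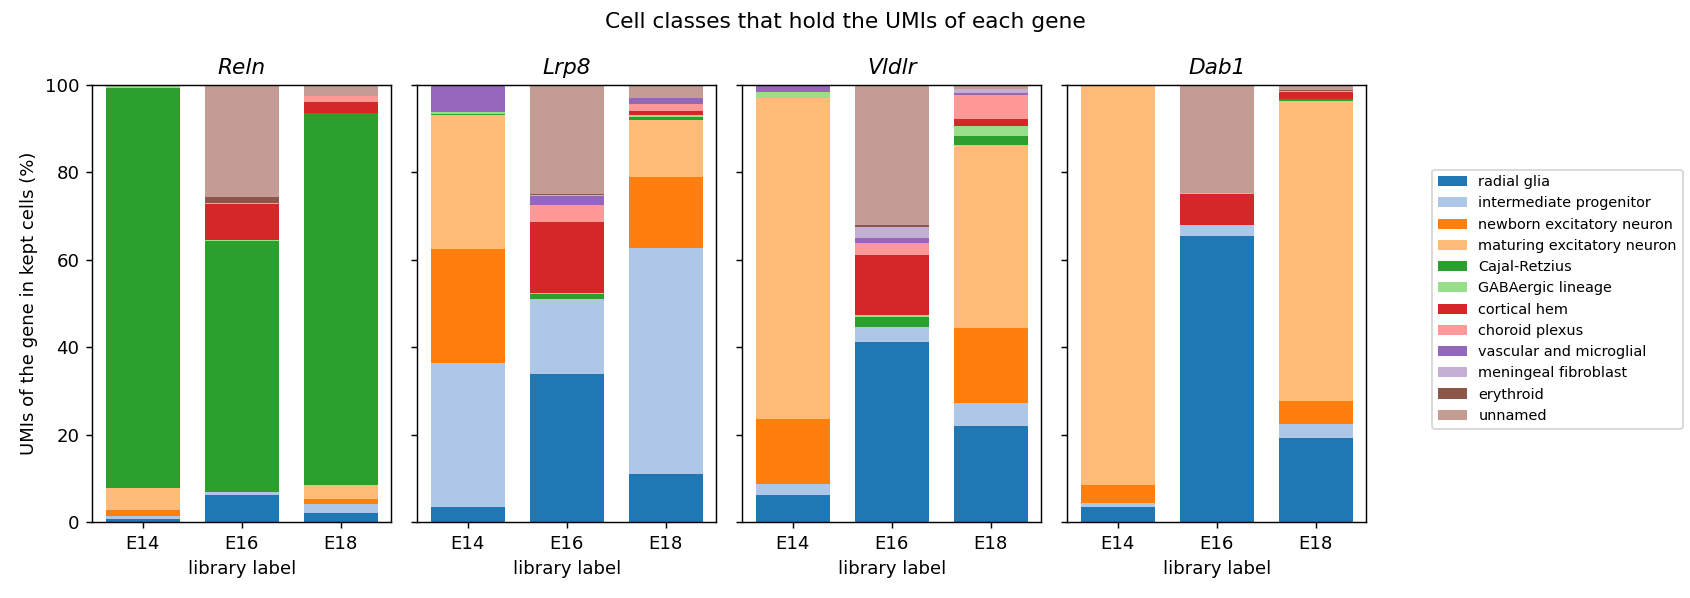
Percent of each gene's UMIs found in each class of cells, as stacked bars for the libraries labelled E14, E16 and E18. Cajal-Retzius-like cells hold 91.6%, 57.4% and 84.9% of the Reln UMIs, and maturing excitatory neuron-like cells hold 91.3% and 68.7% of the Dab1 UMIs under E14 and E18.

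The level of Reln in Cajal-Retzius-like cells was 7489 CPM (7192 to 7796, from 2384 UMIs) under the label E14. It was 1903 CPM (1810.3 to 1999, from 1582 UMIs) under E16 and 5474 CPM (5297 to 5655, from 3614 UMIs) under E18. Single cells ranged from 51 to 246 UMIs with a median of 157 under the label E14, from 0 to 96 with a median of 11 under E16, and from 7 to 302 with a median of 59 under E18. The cells labelled E14 all lay above the median of those labelled E16, and the ranges of the 3 libraries overlapped. A UMI of Reln was found in 16 of 16, 87 of 89 and 51 of 51 of these cells, at median depths of 21442.5, 8567 and 11958 UMIs. With each cell thinned to 2000 UMIs the shares were 100%, 87.6% and 100%.

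**Figure D2:**
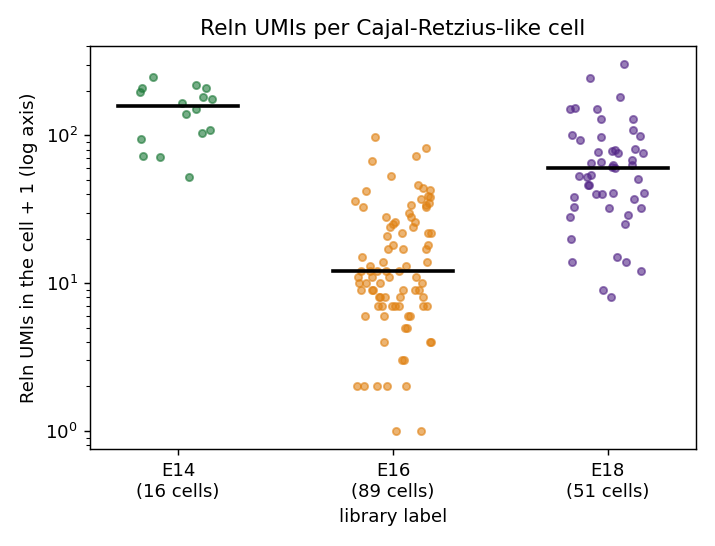
Reln UMIs plus 1 in each Cajal-Retzius-like cell, on a log axis, for the libraries labelled E14 (16 cells), E16 (89 cells) and E18 (51 cells). The bar marks the median, which is 157, 11 and 59 UMIs before 1 is added.

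Between libraries, Reln in these cells was 3.93-fold lower under the label E16 than under E14 (log2 ratio -1.98, -2.07 to -1.88), where 15.1% of genes tested were lower past 2-fold. It was 2.88-fold higher under E18 than under E16 (log2 ratio 1.52, 1.44 to 1.61), where 8.16% of genes were higher past 2-fold. The log2 ratio of E18 to E14 was -0.45 (-0.53 to -0.38), within 2-fold. The value under E16 varied with the processing, ranging from 319 to 2443 CPM over the 9 other processing choices that gave such a cluster or class, against 5816 to 9268 under E14 and 1856 to 6877 under E18. It was the lowest of the 3 libraries under each of these choices.

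Other Cajal-Retzius genes differed between the libraries in both directions. Summed over the other 9 markers of the list, the level was 2416, 3207 and 2658 CPM in the cluster. Calb2, a calcium-binding protein, alone made up 15.7, 968 and 197 CPM of these sums, and the order of the libraries in the sum rests on it. Ndnf, a secreted neurotrophic protein, stood at 333 CPM, 0 UMIs and 24.2 CPM. Tp73, a p53-family transcription factor that marks most Cajal-Retzius cells, stood at 270.2, 381 and 369.6 CPM. The part of these differences in that of Reln was not tested.

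Within each library the Cajal-Retzius-like cells stood far above all progenitors and neurons. Against radial glia-like cells the log2 ratio of Reln was 10.62 (10.10 to 11.15) under the label E14, where 18.3% of genes were higher past 2-fold, 8.39 (8.20 to 8.59) under E16, with 19.2% of genes, and 10.15 (9.90 to 10.40) under E18, with 19.7% of genes. Against maturing excitatory neuron-like cells it was 10.44 (10.22 to 10.65) under E14 and 8.68 (8.45 to 8.91) under E18, where 15.2% and 11.6% of genes were higher past 2-fold.

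Cortical hem-like cells, which resemble the Wnt-secreting midline tissue that borders the cortex, came next among the named classes of the libraries labelled E16 and E18. The cluster was led by Fgf17, Rspo1, Fgf8 and Rspo2, so that Rspo genes known from the hem stood beside Fgf genes known from the rostral midline. Reln stood there at 43.7 CPM (38.2 to 49.7, from 229 UMIs in 392 cells) under the label E16 and at 132 CPM (108 to 160.3, from 103 UMIs in 55 cells) under E18. The log2 ratio of E18 to E16 was 1.58 (1.23 to 1.91), in a comparison where 5.80% of genes were higher past 2-fold. Thinned to 2000 UMIs, 6.17% (3.99 to 9.04) and 18.9% (9.44 to 32.0) of hem-like cells held a Reln UMI, against 1.07% and 0.69% of radial glia-like cells. Tp73 was seen in 9 of the 392 hem-like cells labelled E16 and was at 0 UMIs in those labelled E18. Without the Tp73 cells, Reln under E16 was 45.8 CPM (40.0 to 52.1), about as high as with them. Leaving out Tp73 cells, here and in the clusters below, cannot remove all Cajal-Retzius RNA. Of the 89 Cajal-Retzius-like cells labelled E16, 14 had no Tp73 UMI, and these held 2011 CPM of Reln. The share due to Cajal-Retzius transcripts in hem-like cells was not tested.

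The choroid plexus-like cells, epithelium that makes cerebrospinal fluid, held 5.60 CPM (2.05 to 12.2, from 6 UMIs in 54 cells) under the label E16 and 41.3 CPM (31.3 to 53.5, from 57 UMIs in 36 cells) under E18. The log2 ratio was 2.68 (1.59 to 3.86), where 7.99% of genes were higher past 2-fold. Tp73 UMIs were found in 30 and 17 of these cells, at 107 and 50.7 CPM, the opposite order to Reln. Those labelled E18 without Tp73 had 52.9 CPM (32.3 to 81.7) of Reln. Since Tp73 and Reln did not run together here, this split cannot tell Cajal-Retzius transcripts apart. The share due to Cajal-Retzius transcripts was not tested.

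Unnamed clusters carried 25.6% of the Reln UMIs of the library labelled E16. The Calb1- and Ebf1-led cluster had 96.4 CPM (88.0 to 105, from 480 UMIs), with a Reln UMI in 23.7% of its cells, and 91.4 CPM (83.2 to 100.3) without its 5 Tp73 cells. A cluster in which Tp73 and the GABAergic genes Gad2, Dlx1 and Dlx5 led together had 110.2 CPM (93.3 to 129) in 174 cells labelled E16 and 408 CPM (325 to 505) in 17 cells labelled E18. Without the Tp73 cells, those labelled E16 had 49.0 CPM (35.7 to 65.5) and those labelled E18 had 340.2 CPM (222 to 499). These clusters expressed the Cajal-Retzius list at 652 CPM for the first and 693 and 879 CPM for the second. The members of the list did not go together in the first. There 2 of the 9 markers met the limits for naming, and Calb2, Nhlh2 and Ebf2 were among its leading genes. Tp73 stood at 4.02 CPM in its cells labelled E16, against 381 CPM in the Cajal-Retzius-like cluster. In the second Tp73 stood at 240 and 379 CPM.

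In radial glia-like cells Reln was under the 5 CPM minimum in each library. They had 3.76, 4.66 and 3.82 CPM under the labels E14, E16 and E18, from 20, 170 and 87 UMIs. Vascular and microglial-like cells, which should lack the gene, had 1, 0 and 1 UMIs in 26, 39 and 31 cells at median depths of 18078.5, 13326 and 17610 UMIs. Thinned to 2000 UMIs, 0 of 26, 0 of 39 and 0 of 31 of them held Reln. At 3 counts, the limit taken for a count of 0, this allows shares of up to 11.5%, 7.69% and 9.68%. These are too few cells to set against the 1.15%, 1.07% and 0.69% of radial glia-like cells. Erythroid-like cells labelled E16 had 1.61%, and 9.52 CPM from 39 UMIs, 13 of them in 1 cell, without which the level was 6.41 CPM. Meningeal fibroblast-like cells labelled E16 had 0 Reln UMIs in 93 cells, which allows up to 2.37 CPM by the same limit, below the 4.66 CPM of radial glia-like cells, while those labelled E18 had 2 UMIs in 21 cells. Classes not known for Reln thus lay on both sides of radial glia-like cells. Whether the few Reln UMIs of radial glia-like cells are free RNA was not tested.

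GABAergic lineage-like cells, the precursors of inhibitory interneurons, had 45.1 CPM of Reln (25.2 to 74.3, 15 UMIs in 55 cells) under the label E14 and 21.0 CPM (9.06 to 41.3, 8 UMIs in 69 cells) under E18. Under E14, 8 of the 15 UMIs came from 1 cell, and the level without it was 21.5 CPM. In maturing excitatory neuron-like cells Reln was 4.41 CPM (3.68 to 5.24) under E14 and 12.4 CPM (10.4 to 14.6) under E18, a log2 ratio of 1.31 (1.00 to 1.62), where 2.70% of genes were higher past 2-fold. That difference rested on few cells: 61 of the 139 UMIs under E18 came from 1 cell, and without it the level was 6.97 CPM. Of the 97 cells with at least 20 Reln UMIs, 90 lay in the Cajal-Retzius-like cluster (16, 30 and 44 by label) and 7 lay outside it.

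**Figure D3:**
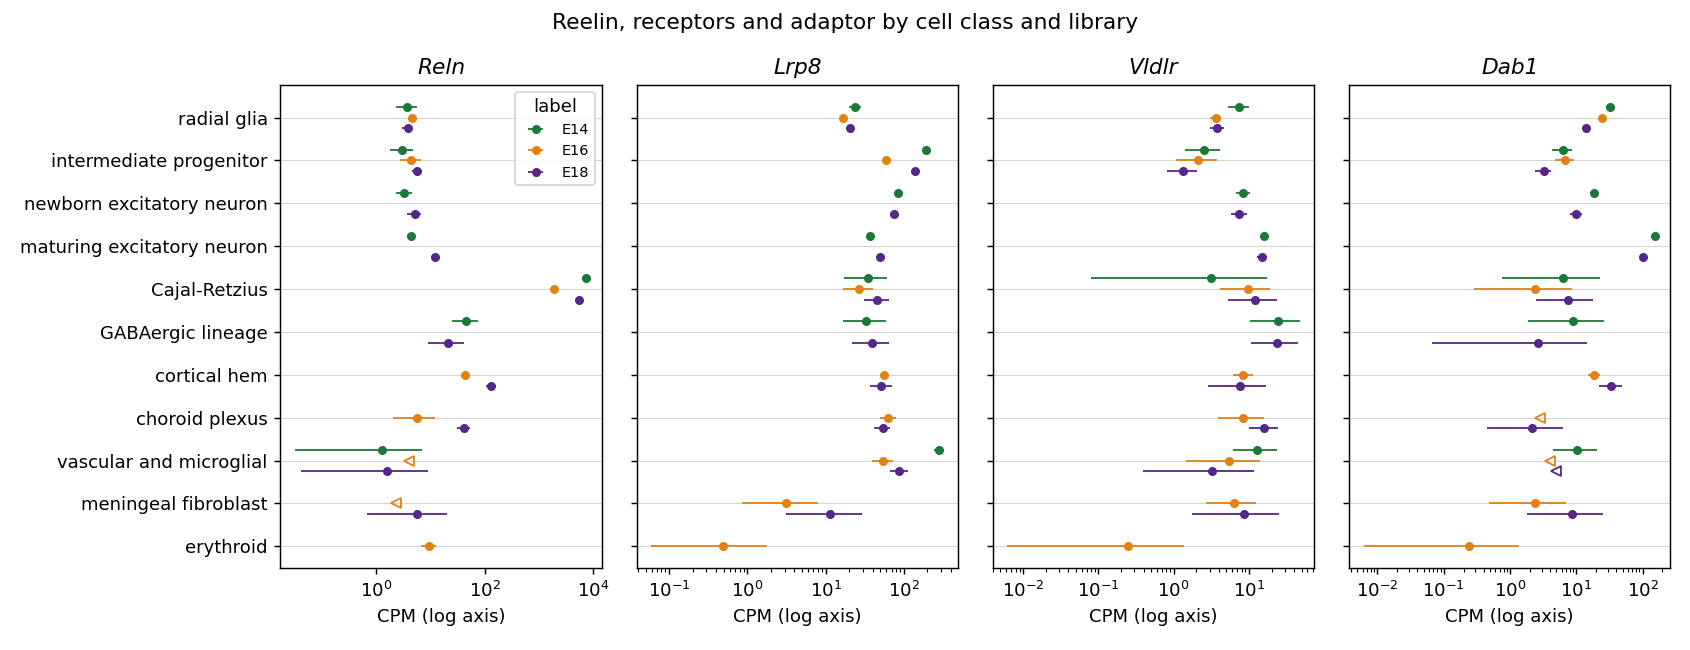
Level of Reln, Lrp8, Vldlr and Dab1 in CPM, on log axes, in each class of cells and library, with 95% Poisson intervals; open triangles mark classes with 0 UMIs, at the limit that allows. Reln peaks in Cajal-Retzius-like cells, at 7489, 1903 and 5474 CPM, and Dab1 in maturing excitatory neuron-like cells, at 155 and 103 CPM.

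Lrp8, the first receptor, was higher in intermediate progenitor-like cells than in the other excitatory lineage classes measured in each library. Intermediate progenitor-like cells had 195 CPM (184 to 207, 1162 UMIs in 516 cells) under the label E14, 60.2 CPM (53.7 to 67.2, 311 UMIs in 456 cells) under E16 and 139 CPM (133 to 145, 2204 UMIs in 1434 cells) under E18. An Lrp8 UMI was found in 77.7%, 43.0% and 64.3% of them, and in 28.8%, 10.9% and 21.4% after thinning to 2000 UMIs. In erythroid-like cells labelled E16, 2 of 124 cells held one (1.61%) at a median depth of 32391 UMIs.

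Radial glia-like cells had 23.7 CPM of Lrp8 (19.8 to 28.2) under the label E14, 16.7 CPM (15.4 to 18.1) under E16 and 20.4 CPM (18.6 to 22.4) under E18. Intermediate progenitor-like cells stood above them by 7.93-fold under E14 (log2 ratio 2.99, 2.73 to 3.25), 3.46-fold under E16 (1.79, 1.59 to 1.98) and 6.53-fold under E18 (2.71, 2.57 to 2.85). In those comparisons 4.74%, 5.04% and 5.10% of genes were higher past 2-fold.

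Newborn excitatory neuron-like cells had 84.0 CPM of Lrp8 (78.7 to 89.6) under E14 and 75.0 CPM (69.4 to 80.8) under E18. The step from intermediate progenitor-like to newborn cells was a log2 ratio of -1.21 (-1.33 to -1.08) under E14, where 9.49% of genes were lower past 2-fold, and -0.88 (-1.01 to -0.76) under E18. Maturing excitatory neuron-like cells had 37.3 CPM (35.2 to 39.6) under E14 and 49.4 CPM (45.4 to 53.7) under E18. The step from newborn to maturing cells was -1.15 (-1.27 to -1.02) under E14, where 5.06% of genes were lower past 2-fold, and -0.59 under E18. Over both steps Lrp8 was lower by a log2 ratio of -2.35 (-2.47 to -2.24) and -1.47 (-1.61 to -1.34), where 15.9% and 14% of genes were lower past 2-fold.

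**Figure D4:**
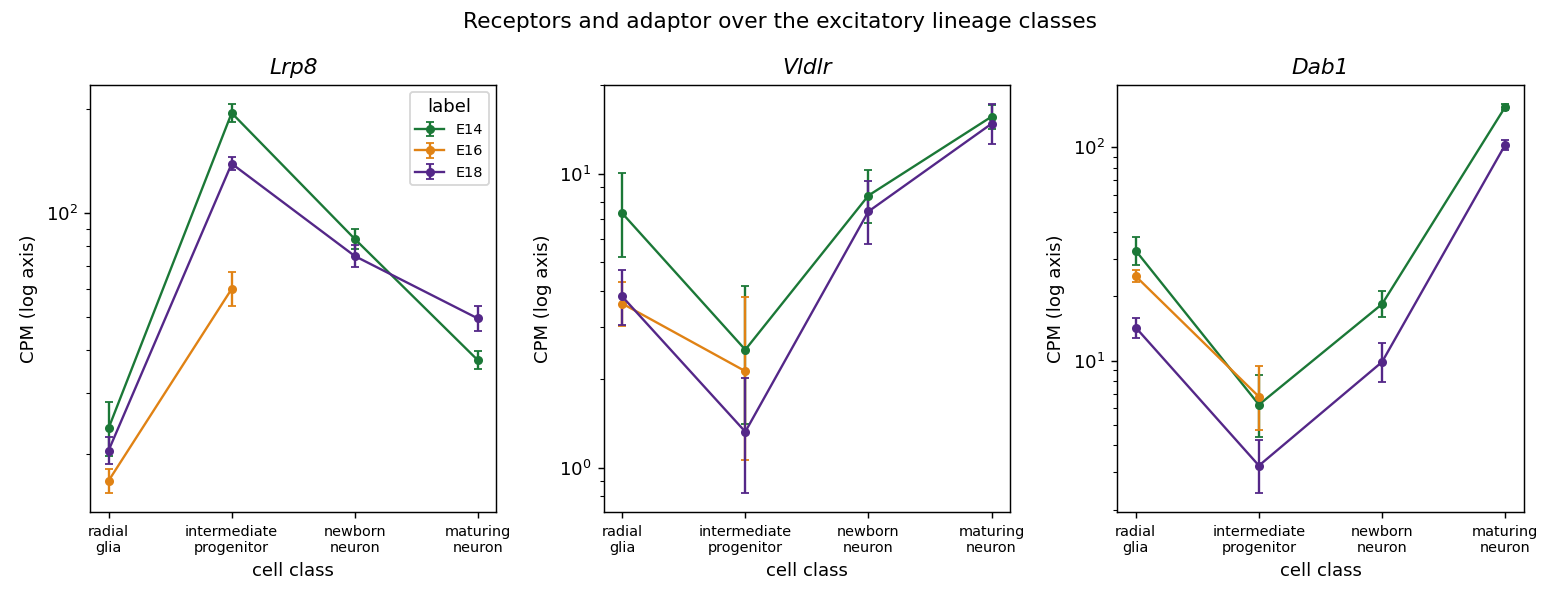
Levels of Lrp8, Vldlr and Dab1 in CPM in radial glia-like, intermediate progenitor-like, newborn and maturing excitatory neuron-like cells of each library, with 95% Poisson intervals. Lrp8 is highest in intermediate progenitor-like cells, where Dab1 and Vldlr are lowest (for Vldlr under E16 within counting error of radial glia-like cells); the library labelled E16 has no point for the neuron classes.

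Between libraries, Lrp8 in intermediate progenitor-like cells was lower under the label E16 than under E14 by a log2 ratio of -1.68 (-1.86 to -1.50), where 7.75% of genes were lower past 2-fold. It was higher under E18 than under E16 by 1.19 (1.03 to 1.37), where 2.64% of genes were higher past 2-fold. The class was made up differently by library: the cluster with the most Lrp8, led by Mfap4, held 197 of 516 progenitors labelled E14 and 436 of 1434 labelled E18, but 9 of 456 labelled E16. Within the other 3 clusters Lrp8 stood at 181, 152 and 152 CPM under E14, against 62.3, 67.1 and 47.5 CPM under E16 and 140.5, 131 and 123 CPM under E18. The ratio of E18 to E14 was -0.49 (-0.59 to -0.38). In newborn cells it was -0.16 (-0.31 to -0.02) and turned positive under 2 other processing choices, so no direction is given there. These newborn cells came mainly from different clusters, those labelled E14 from 2 clusters led by Sstr2 and Crym and those labelled E18 from 1 led by Sema6d.

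Lrp8 was also seen outside the neuronal lineage. Hem-like cells had 56.3 CPM (50.03 to 63.1) under E16 and 51.3 CPM under E18, and choroid plexus-like cells had 63.4 and 53.6 CPM. Vascular and microglial-like cells had 283, 54.2 and 88.0 CPM in the 3 libraries, but single cells carried much of this. The cell with the most Lrp8 UMIs held 126 of 220 under E14, 32 of 40 under E16 and 48 of 54 under E18, and without it the levels were 151, 12.2 and 11.5 CPM. Cells of this cluster with more endothelial than microglial marker UMIs held 219, 40 and 51 of these UMIs, the same single cells included, and 8 of 15, 6 of 30 and 2 of 19 such cells had one. Those with more microglial marker UMIs had 1, 0 and 3 UMIs in 11, 7 and 12 cells. Cajal-Retzius-like cells, the main source of Reln, had 34.6, 26.5 and 45.4 CPM of Lrp8 from 11, 22 and 30 UMIs.

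Vldlr, the second receptor, was sparse, with 620, 321 and 396 UMIs in all kept cells of the 3 libraries. In intermediate progenitor-like cells it stood at 2.52, 2.13 and 1.32 CPM from 15, 11 and 21 UMIs. These were the lowest values of the excitatory lineage in each library, but under E16 the log2 ratio to radial glia-like cells was -0.56 (-1.20 to 0.09), an interval that includes 0. Newborn excitatory neuron-like cells had 8.43 CPM (6.80 to 10.3) under the label E14 and 7.44 CPM (5.78 to 9.43) under E18. Maturing ones had 15.6 CPM (14.2 to 17.1, 454 UMIs) and 14.8 CPM (12.6 to 17.2, 166 UMIs). The levels in maturing cells of the 2 libraries did not differ beyond counting error, with a log2 ratio of -0.08 (-0.32 to 0.17). Both levels depended on the cell filter: the stricter filter gave 9.54 and 12.5 CPM, and the looser one 22.9 and 23.1 CPM.

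From intermediate progenitor-like to maturing cells Vldlr was higher by a log2 ratio of 2.24 (1.67 to 2.80) under E14 and 2.76 (2.33 to 3.17) under E18, where 12.4% and 14.3% of genes were higher past 2-fold. The step from intermediate progenitor-like to newborn cells alone was 1.42 (0.80 to 2.03) under E14, where 8.86% of genes were higher past 2-fold. Under E18 it was 1.86 (1.36 to 2.32), at a low level, where 8.34% of genes tested were higher past 2-fold. Vldlr thus had the opposite order to Lrp8 along the 3 later classes of both libraries. In radial glia-like cells Vldlr was 7.34 CPM (5.22 to 10.0) under E14, 3.62 CPM (3.03 to 4.29) under E16 and 3.82 CPM (3.06 to 4.71) under E18. GABAergic lineage-like cells had 24.0 CPM (10.4 to 47.4) and 23.6 CPM (10.8 to 44.8) under E14 and E18, from 8 and 9 UMIs, with intervals that overlap those of maturing excitatory cells. Cajal-Retzius-like cells had 1, 8 and 8 Vldlr UMIs, or 3.14, 9.62 and 12.1 CPM. They stood above radial glia-like cells by 2.30-fold under E16 and 2.72-fold under E18 (log2 intervals 0.14 to 2.14 and 0.34 to 2.41). There 19.2% and 19.7% of genes were higher past 2-fold. Under E14 the log2 interval was -2.98 to 1.22. Against maturing cells the intervals were -3.95 to 0.16 under E14 and -1.37 to 0.69 under E18. Choroid plexus-like cells had 8.40 and 15.9 CPM under E16 and E18, and hem-like cells 8.39 and 7.70 CPM.

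Dab1, the adaptor, was highest in maturing excitatory neuron-like cells, at 155 CPM (150.1 to 159, 4487 UMIs in 2056 cells) under the label E14 and 103 CPM (96.8 to 109, 1152 UMIs in 889 cells) under E18. A Dab1 UMI was found in 80.5% and 55.9% of them, and in 25.6% (23.7 to 27.5) and 19.3% (16.7 to 22.0) after thinning to 2000 UMIs. The thinned share under E18 was 10.7% with the stricter cell filter and 12.4% at Leiden resolution 0.5. These cells held 91.3% and 68.7% of all Dab1 UMIs of their libraries. Erythroid-like cells labelled E16 had 1 Dab1 UMI.

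Along the lineage Dab1 was lowest in the middle. In radial glia-like cells it was 32.7 CPM (28.1 to 38.0) under E14, 24.8 CPM (23.3 to 26.5) under E16 and 14.3 CPM (12.8 to 15.9) under E18. In intermediate progenitor-like cells it was 6.21 CPM (4.37 to 8.56) under E14, 6.77 CPM (4.72 to 9.42) under E16 and 3.22 CPM (2.39 to 4.23) under E18. The log2 ratios of the second to the first were -2.23 (-2.70 to -1.76), -1.73 (-2.19 to -1.30) and -1.86 (-2.20 to -1.51), where 8.74%, 7.01% and 6.77% of genes were lower past 2-fold. Dab1 and Lrp8 thus differed in opposite directions over this step in each of the 3 libraries.

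Newborn excitatory neuron-like cells had 18.4 CPM of Dab1 (15.96 to 21.1) under E14 and 9.85 CPM (7.92 to 12.1) under E18, above intermediate progenitor-like cells by log2 ratios of 1.43 (0.97 to 1.89) and 1.36 (0.94 to 1.78). The step from newborn to maturing cells was larger, at 3.00 (2.81 to 3.20) and 3.26 (2.97 to 3.55), where 3.90% and 5.88% of genes were higher past 2-fold. Over both steps Dab1 was higher by 4.43 (4.02 to 4.86) and 4.62 (4.30 to 4.94). Cajal-Retzius-like cells had 2, 2 and 5 Dab1 UMIs, and stood below maturing excitatory neuron-like cells by log2 ratios of -4.42 (-6.47 to -2.71) under E14 and -3.60 (-4.91 to -2.47) under E18, where 12.9% and 6.91% of genes were lower past 2-fold. Against radial glia-like cells the log2 ratio was -2.21 (-4.27 to -0.49) under E14 and -2.92 (-4.33 to -1.41) under E16, where 25.9% and 18.9% of genes were lower past 2-fold. Under E18 it was -0.83 (-2.15 to 0.30), an interval that includes 0.

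**Figure D5:**
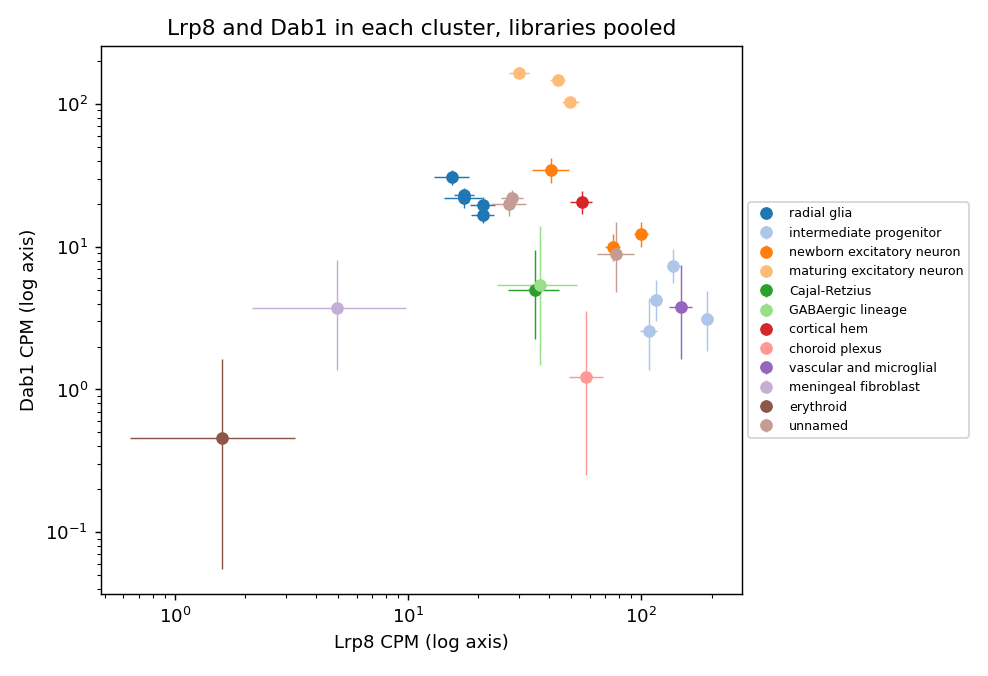
Lrp8 against Dab1 level in CPM for each cluster, libraries pooled, with 95% Poisson intervals on log axes. Intermediate progenitor-like clusters sit high in Lrp8 and low in Dab1, and the 3 maturing excitatory neuron-like clusters, at 164, 146 and 102 CPM of Dab1, sit high in Dab1 and at intermediate Lrp8.

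Between libraries Dab1 in radial glia-like cells was lower under the label E18 than under E14 by a log2 ratio of -1.14 (-1.40 to -0.88), where 3.33% of genes were lower past 2-fold. With each cell thinned to 2000 UMIs, 6.88%, 4.98% and 2.19% of radial glia-like cells labelled E14, E16 and E18 held Dab1. With 10 CPM added in place of 1 the log2 ratio was -0.82, within 2-fold. The radial glia-like cells labelled E14 and E18 came mainly from the same 2 clusters, whereas those labelled E16 came mainly from 3 others.

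In maturing excitatory neuron-like cells the log2 ratio of E18 to E14 for Dab1 was -0.59 (-0.68 to -0.49), within 2-fold. Those labelled E14 came mainly from 2 clusters, and those labelled E18 from another, led by Pcp4. In newborn cells it was -0.84 (-1.18 to -0.50) and became 1.76 under a looser cell filter, so no direction is given there. Hem-like cells had 18.7 CPM of Dab1 (15.2 to 22.8) under E16 and 33.4 CPM (21.8 to 48.9) under E18. The Calb1- and Ebf1-led cluster had 20.3 CPM (16.5 to 24.6).

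Lrp8 and Dab1 were detected together in maturing excitatory neuron-like cells about as often as their separate shares give. At 2000 UMIs per cell, 39 of 2047 cells labelled E14 held both Lrp8 and Dab1, against 37.9 from the product of the shares, and 15 of 877 labelled E18 did, against 14.6. Vldlr and Dab1 met in 18 cells against 15.9, and in 2 against 3.28. The receptors Lrp8 and Vldlr met in 7 cells against 4.48, and in 2 against 1.47. Without thinning, so at unequal depths, 657 cells labelled E14 held both Lrp8 and Dab1 against 634, and 211 labelled E18 did against 209.5. Vldlr and Dab1 then met in 323 cells against 303 and in 92 against 72.7, and Lrp8 and Vldlr in 165 against 144 and in 70 against 54.7.

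Across 22 units of class and library, genes most like each member were found by Pearson's r of log2(CPM + 10) over 10900 genes, as a description, since units share libraries and depth. For Reln these included Lhx5 (r = 0.95), a LIM homeobox factor of Cajal-Retzius cells, LOC103692036 (0.92), Syt7 (0.92), a synaptotagmin, and Ajap1 (0.92). Lhx5 was also among the markers that named the Cajal-Retzius-like class. Units had at least 30 cells, so that class entered under E16 and E18 alone, and the values for Reln lean on these units. For Vldlr they included Abr (0.90), Vstm2l (0.89), Sobp (0.89) and Slc25a12 (0.88). Vldlr and these genes were highest in GABAergic lineage-like units, where Vldlr rested on 8 UMIs under E14 and 9 under E18. For Dab1 they were Sybu (0.88), a linker of cargo to kinesin, LOC120094319 (0.84), Lsamp (0.84), a cell adhesion protein, Cacna1e (0.82), a calcium channel subunit, and Tmem74 (0.81). For Lrp8 the values were lower: Cnot8 (0.80) of the deadenylase complex, Chmp1b (0.79), Fars2 (0.79), Ranbp10 (0.78) and Ranbp9 (0.76). Among the members, r was 0.33 for Reln and Vldlr and 0.30 for Vldlr and Dab1, and lay between -0.07 and -0.0047 for the other 4 pairs.

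The wider pathway was followed through a list of 60 genes of 6 roles: other ligands of these receptors, proteases that cut Reelin, receptor partners and turnover, kinases and downstream effectors, the Lis1 complex with Cdk5, and Dab1 turnover. In radial glia-like cells 47 of them were measured above 5 CPM. Between E16 and E14, 1 was higher and 6 were lower past 2-fold (2.37% and 7.45% of all genes were), with a median log2 ratio of -0.13 against -0.11 over all genes. Between E18 and E14, 0 were higher and 5 lower (0.992% and 3.33% of all genes were), with a median of -0.02 against -0.06. In both comparisons 3 of those lower were the other ligands Apoe, Clu and Thbs1. Apoe, an apolipoprotein that these receptors bind, stood at 67.4, 4.74 and 11.4 CPM in radial glia-like cells labelled E14, E16 and E18. Clu (clusterin) stood at 36.9, 1.48 and 9.93 CPM, and Thbs1 (thrombospondin 1) at 37.3, 0.986 and 3.87 CPM. Among the 42 list genes of at least 10 CPM on average, the highest log2 ratios of E18 to E14 were within 2-fold. These were 0.84 for Pik3r1, a PI3-kinase subunit, 0.66 for Socs6, which takes part in the turnover of Dab1, and 0.64 for Nectin1, an adhesion protein.

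In newborn excitatory neuron-like cells, 1 of 44 pathway genes was higher and 1 lower past 2-fold between E18 and E14, where 1.34% and 2.72% of all genes were. The higher was Efnb2, an ephrin, at 139 and 306 CPM under E14 and E18. The lower was Nrp1, a semaphorin co-receptor, at 232 and 109.6 CPM. Among the 42 of these of at least 10 CPM on average, Nectin1 (0.65) and Pik3r1 (0.56) had the next highest log2 ratios, within 2-fold. Cdk5r1 (-0.80), an activator of Cdk5, and Efnb3 (-0.61) had the next lowest, also within 2-fold. In maturing cells 1 of 44 was higher and 1 lower, where 2.70% of all genes were higher and 2.02% lower, so these counts are near the background. Adamts3, a protease that cleaves Reelin, stood at 19.3 and 47.3 CPM under E14 and E18, and Nrp1 at 107 and 24.1 CPM. Among the 42 list genes of at least 10 CPM on average there, Dab2ip (0.80) and Nectin1 (0.79) had the next highest log2 ratios, within 2-fold. Cdk5r1 (-0.65) and Pafah1b3 (-0.51), of the Lis1 complex, had the next lowest, also within 2-fold.

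Along the lineage the list held more genes that were higher past 2-fold in maturing than in intermediate progenitor-like cells (10 of 46 under E14 and 10 of 45 under E18) than lower (6 and 3). Over all genes, 12.4% were higher and 15.9% lower under E14, and 14.3% and 14% under E18. Its median log2 ratio was 0.23 and 0.39, against -0.15 and -0.05 over all genes. Fyn, a kinase of Dab1, was measured in every class of the lineage, though its level in newborn cells is not reported here. It stood at 133, 76.7 and 107 CPM in radial glia-like cells, at 305, 301 and 312 CPM in intermediate progenitor-like cells and, under E14 and E18, at 189.6 and 196 CPM in maturing ones.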

How the data were processed

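Raw gene-by-barcode UMI counts of 3 libraries were used as deposited; the authors made them with Cell Ranger 6.0.1 on the rat build mRatBN 7.2, per the submitters' processing notes, from Single Cell 3' Kit v 3.1 libraries read on a NovaSeq 6000. Protocol text among the labels on human cell sorting does not match rat primary cells and was not used. The files held 7100, 6707 and 6937 barcodes and 62740631, 80974234 and 73727823 UMIs.

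Cells with at least 1000 genes and at most 10% mitochondrial UMIs were kept (4444, 5193 and 5690), and 158, 216 and 259 with the highest Scrublet scores were removed, at an assumed 0.8% per 1000 cells. Cells were clustered with Scanpy 1.11.5 and leidenalg 0.10.2 (2000 variable genes without the 4 members and the pathway list, 30 components, 15 neighbours, resolution 1). Names required 3 or more markers with a level 1.2-fold or more above the mean of the libraries, each in 20% or more of the cells. Of 128 marker symbols 127 were found. Clusters within these limits were still left unnamed where a rival cell type was recorded. The Ung-led cluster, with 751 cells labelled E16, had 9 radial glia markers raised and cortical hem as rival. The cluster led by Tp73 and GABAergic genes had 5 Cajal-Retzius markers raised and the GABAergic lineage as rival. The cells of both are thus outside the named classes. Counts were summed per class and library. Named were the members, the 5 genes most alike to each in pattern and the 3 clusters with the highest level of each. Pathway genes named had the 3 highest and 3 lowest E18 to E14 ratios per class, among those averaging at least 10 CPM. The cluster-leading genes, marker genes and Fyn were named after their values were seen. Some genes that this rule names are not reported here. The members and lists were chosen with earlier results of these data known. Promoters were found for 3 of the 4 members. The scripts were tested on simulated data.

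Alternatives were other cell filters, doublet removal, clustering, scaling and added CPM. Intervals cover counting error only.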

Additional observations from a re-analysis of the deposited data

Results flagged for a closer look

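UMIs of all 4 genes were present in the 6050 barcodes that the cell filter or the doublet step left out, which had a median of 1344 UMIs: 2479 of Reln, 1407 of Lrp8, 330 of Vldlr and 1251 of Dab1. There are no control samples, so these are set against the 3 counts that a count of 0 allows. On the CPM scale Lrp8 stood at 49.6 CPM in the barcodes left out and 50.8 in those kept, and Dab1 at 44.1 and 42.2. Vldlr stood at 11.6 and 7.07 CPM. Reln stood at 87.3 and 50.9 CPM, and by label at 63.2 against 49.3 (E14), 55.8 against 38.7 (E16) and 149 against 65.6 (E18). Whether these barcodes hold whole cells was not tested.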

How the results depend on the processing

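No paired analysis was possible because each label has 1 library. Below, Reln values are CPM in Cajal-Retzius-like cells and the other values are log2 ratios, either of maturing neurons to intermediate progenitors or of E18 to E14 within a class; the cause of each difference was not tested. Of the main results under other settings, 81 values stayed within counting error of the reported one, 63 moved beyond it and 3 turned in direction. With 10 CPM added, maturing over progenitors was -2.11 (E14) and -1.33 (E18) for Lrp8 and 3.34 and 3.09 for Dab1, and Dab1 in radial glia was -0.82. Without mitochondrial, ribosomal and haemoglobin genes Reln was 9268, 2443 and 6877 (E14, E16, E18). At Leiden resolution 0.5 Reln was 319 (E16) and 4064 (E18), Lrp8 maturing over progenitors -2.004 and -1.27, Lrp8 E18 to E14 -0.77 (radial glia), -0.20 (progenitors) and -1.41 (newborn), and Dab1 -0.45 (newborn) and -0.93 (maturing). At resolution 2 Reln was 1019.8 (E16) and 4269 (E18), Dab1 maturing over progenitors 3.82 (E14), and newborn E18 to E14 -0.00092 for Lrp8 and -0.16 for Dab1. With each library clustered alone Reln was 780.1 (E16), Lrp8 maturing over progenitors -2.74 and -1.62, Lrp8 E18 to E14 -0.61 (progenitors) and 0.061 (newborn, turned), and Dab1 -0.13 (progenitors), -1.28 (newborn) and -0.22 (maturing). Under the looser filter (500 genes, 20% mitochondrial) Reln was 651 (E16) and 4322 (E18), Lrp8 maturing over progenitors -2.68 and -2.004, Dab1 5.14 (E18), and E18 to E14 -0.59 for Lrp8 (newborn), 1.76 for Dab1 (newborn, turned) and -0.43 for Dab1 (maturing). With the members among the variable genes Reln was 370.4 (E16) and 4962 (E18), maturing over progenitors under E18 -1.71 for Lrp8 and 5.00 for Dab1, and E18 to E14 -0.33 for Dab1 (newborn), 0.22 for Lrp8 (maturing) and -0.23 for Dab1 (maturing). Without doublet removal Reln was 624 (E16) and 3929.9 (E18), maturing over progenitors -2.55 and -1.81 for Lrp8 and 4.93 and 5.08 for Dab1, Lrp8 E18 to E14 -0.53 (radial glia) and 0.017 (newborn, turned), and Dab1 -1.42 (newborn) and -0.25 (maturing). Under the stricter filter (2000 genes, 5%) no Cajal-Retzius-like cluster of 10 cells formed, maturing over progenitors under E14 was -2.19 for Lrp8 and 5.17 for Dab1, and E18 to E14 was -0.24 for Lrp8 and -0.16 for Dab1 (progenitors), -0.42 for Lrp8 (newborn), 0.55 for Lrp8 (maturing) and -0.87 for Dab1 (maturing). In alternatives added after seeing the data, Reln was 5816, 566 and 1856 over all cells with a Tp73 UMI, and 5197 (E18) without the cell with most Reln; without the cell with most Lrp8, Lrp8 E18 to E14 in radial glia was 0.020, against a reported -0.21 whose interval spans 0. Levels of Vldlr and of all members in classes of under 100 cells are limited by counts.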
